A study of Arabidopsis thaliana with 12 samples.

Results

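Aquaporins are membrane channels that let water and, depending on the isoform, small uncharged solutes cross a lipid bilayer. A pair of short loops, each typically with an Asn-Pro-Ala (NPA) motif or a variant of it, meets inside the pore. In plants the family is divided into plasma membrane intrinsic proteins (PIPs, with the groups PIP1 and PIP2), tonoplast intrinsic proteins of the vacuole (TIPs), Nod26-like intrinsic proteins (NIPs) and small basic intrinsic proteins of the endoplasmic reticulum (SIPs). PIPs carry much of the water flow through root cells, and their closure and removal from the plasma membrane are well known early responses of roots to salt.

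The 35 aquaporin genes of Arabidopsis thaliana were taken by locus identifier from a table of 38088 loci. They are written here with the hyphenated names of protein databases, so that TIP1-1 is the first gene of the TIP1 group and not an allele. They comprise 5 PIP1, 8 PIP2, 10 TIP, 9 NIP and 3 SIP genes. The libraries are mRNA-seq of whole 5-day-old seedlings of dcp5-1, which carries a mutation in DCP5 (a gene for a factor of mRNA decapping), and of Col-0, each sampled after 60 min and after 0 min in liquid medium with 150 mM NaCl. All seedlings grew on MS agar and were moved into liquid MS medium before sampling, so the 0 min libraries also come from seedlings handled in liquid. Each of the 4 groups has 3 libraries, 12 in all, and nothing in the labels says whether these came from separate cultures, so p-values measure the spread between libraries, which may be technical. The dcp5-1 allele is described by name only, and 1 line stands for the mutant. In whole seedlings fewer cells of a type and less RNA per cell cannot be told apart.

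The values were taken as FPKM (fragment counts divided by the length of the transcript and by the size of the library). Levels of different genes can therefore be set side by side, while sums over genes describe shares of the library rather than molecules per cell. Differences were fitted with limma on log2(FPKM + 1) for 19876 loci that averaged 1 FPKM or more, and a gene was called higher or lower at a Benjamini-Hochberg adjusted p below 0.05 over all of them. A difference on this scale understates the change of genes with low values. The implied depth was 14600000 to 21100000 reads per library, provided that the unit is FPKM. DCP5 averaged 20.5 FPKM in dcp5-1 and 80.1 FPKM in Col-0 at 60 min, and 13.0 FPKM in dcp5-1 and 50.7 FPKM in Col-0 at 0 min, with no overlap between genotypes. Summed over fixed marker lists, 5 shoot genes held 4469 to 4909 FPKM in the libraries of the other 3 groups and 8497 to 10309 FPKM in Col-0 at 0 min. The sum of 8 root genes was 63.7 to 68.2 FPKM in dcp5-1 and 76.5 to 89.0 FPKM in Col-0 at 60 min, and 75.2 to 88.2 FPKM in dcp5-1 and 97.7 to 101 FPKM in Col-0 at 0 min. Both sums were thus highest in Col-0 at 0 min, but their members did not move alike. The shoot sum there was mostly LHCA1 (4590 FPKM) and CAB3 (2834 FPKM). RCA averaged 1796 FPKM in that group and 2857 FPKM in dcp5-1 at 60 min. After salt in Col-0 each list had 2 members called higher and 2 lower, against 36.3% and 35.7% of all tested loci. The part of tissue make-up in the aquaporin differences that rest on that group was not tested. Of the tested loci 66.7% were called for salt in dcp5-1 and 72.0% for salt in Col-0, 54.5% for genotype at 60 min, 46.9% for genotype at 0 min and 24.4% for the interaction.

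The Col-0 0 min libraries spread more than the others in this family. Replicate 2 of that group was the highest of the 3 in 21 of the 27 aquaporins tested, by a median of 0.33 log2 units over the other 2, against 0.02 for all loci tested. Replicate 1 was the highest in 2 of 27, with a median of -0.29. Over the 13 aquaporins averaging 100 FPKM or more the median coefficient of variation was 2.94% in dcp5-1 at 60 min, 1.69% in dcp5-1 at 0 min, 5.10% in Col-0 at 60 min and 16.2% in Col-0 at 0 min. Counts over the whole family that rest on this group are therefore also given without replicate 1 and without replicate 2. Counts within a subfamily or a gene list are not given in this way.

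The coding sequences show the family signature and a limit on how reads can be assigned. A search of the coding strand, in frame, for the codons AACCCNGCN or AATCCNGCN, which encode NPA, found a pair of such boxes in all 13 PIP and all 10 TIP genes. Among the NIP genes 4 had a pair, 4 had a single box and NIP5-1 had none, and each of the 3 SIP genes had a single box. Of 27444 annotated coding sequences, 0.284% held 2 or more such boxes. The lines below give the stretch around the first or only box, 5′ to 3′ on the coding strand (RefSeq TAIR10.1), with the NPA codons in capitals. They are shown for the genes whose levels the results turn on and for the neighbouring pair PIP2-2 and PIP2-3. The only box of SIP1-1 starts at base 553 of 723, nearer the second box of TIP1-1 (base 595) than its first (base 253). The SIP1-1 line is therefore not placed like the others.
PIP2-2: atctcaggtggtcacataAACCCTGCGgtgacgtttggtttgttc
PIP2-3: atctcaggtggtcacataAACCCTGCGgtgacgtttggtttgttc
PIP2-7: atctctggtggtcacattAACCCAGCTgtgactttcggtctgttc
PIP1-5: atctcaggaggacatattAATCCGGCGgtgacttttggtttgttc
TIP1-1: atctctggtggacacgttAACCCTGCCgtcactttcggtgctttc
TIP2-1: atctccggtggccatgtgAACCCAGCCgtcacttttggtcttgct
NIP1-2: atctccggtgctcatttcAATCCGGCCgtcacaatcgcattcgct
NIP6-1: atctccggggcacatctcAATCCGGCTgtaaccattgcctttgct
SIP1-1: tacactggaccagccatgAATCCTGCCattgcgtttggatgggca

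PIP2-2 and PIP2-3 were identical over this stretch. The genes stand beside each other on chromosome 2, PIP2-2 (AT2G37170) at chr2:15613368-15615022 on the minus strand and PIP2-3 (AT2G37180) at chr2:15617635-15619155 on the plus strand (TAIR10.1 annotation). Over 858 aligned coding bases 813 were identical (94.8%), and 27.1% of the 50-base words of the PIP2-2 coding sequence also occurred in PIP2-3. How reads matching both were divided is not given in the sources used here, so the level of each of the pair is uncertain. The only other pair of members sharing 50-base words was NIP4-1 and NIP4-2.

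Some members also overlap a gene on the opposite strand, and whether reads were counted by strand is not given in the sources used here. For 5 of the 27 tested members (TIP2-1, TIP3-1, NIP6-1, SIP1-2 and SIP2-1) reads of the partner could enter the member's value. The most abundant partner is that of SIP2-1, which shares 147 of its 1629 genomic bases with CRD1, a chlorophyll synthesis gene at 1434 FPKM in dcp5-1 and 1130 FPKM in Col-0 at 60 min, and at 868 FPKM in dcp5-1 and 1128 FPKM in Col-0 at 0 min. TIP2-1 shares 445 bases with AT3G03265 and 120 bases with PnsB3, whose group means were 26.4 to 56.5 and 53.4 to 81.4 FPKM. TIP3-1 shares 290 of its 1389 bases with AT1G73200, whose group means were 10.8 to 16.7 FPKM. NIP6-1 shares 26 bases with AT1G80750 (38.6 to 61.9 FPKM), and SIP1-2 shares 444 bases with NAC088 (2.41 to 4.57 FPKM).

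Expression was concentrated in a few PIP and TIP genes. Averaged over the 12 libraries, 6 members exceeded 1000 FPKM, 7 lay between 100 and 1000, 14 between 1 and 100, and 8 fell below the 1 FPKM filter. The 6 most abundant were TIP1-2, TIP2-1, TIP1-1, PIP2-1, PIP1-3 and PIP2-7. The 8 below the filter were TIP1-3, TIP3-2, TIP5-1, NIP2-1, NIP3-1, NIP4-1, NIP4-2 and NIP7-1, and NIP4-1 was listed at 0 in all 12 libraries. All 13 PIP and all 3 SIP genes passed the filter, against 7 of 10 TIP and 4 of 9 NIP genes.

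**Figure D1:**
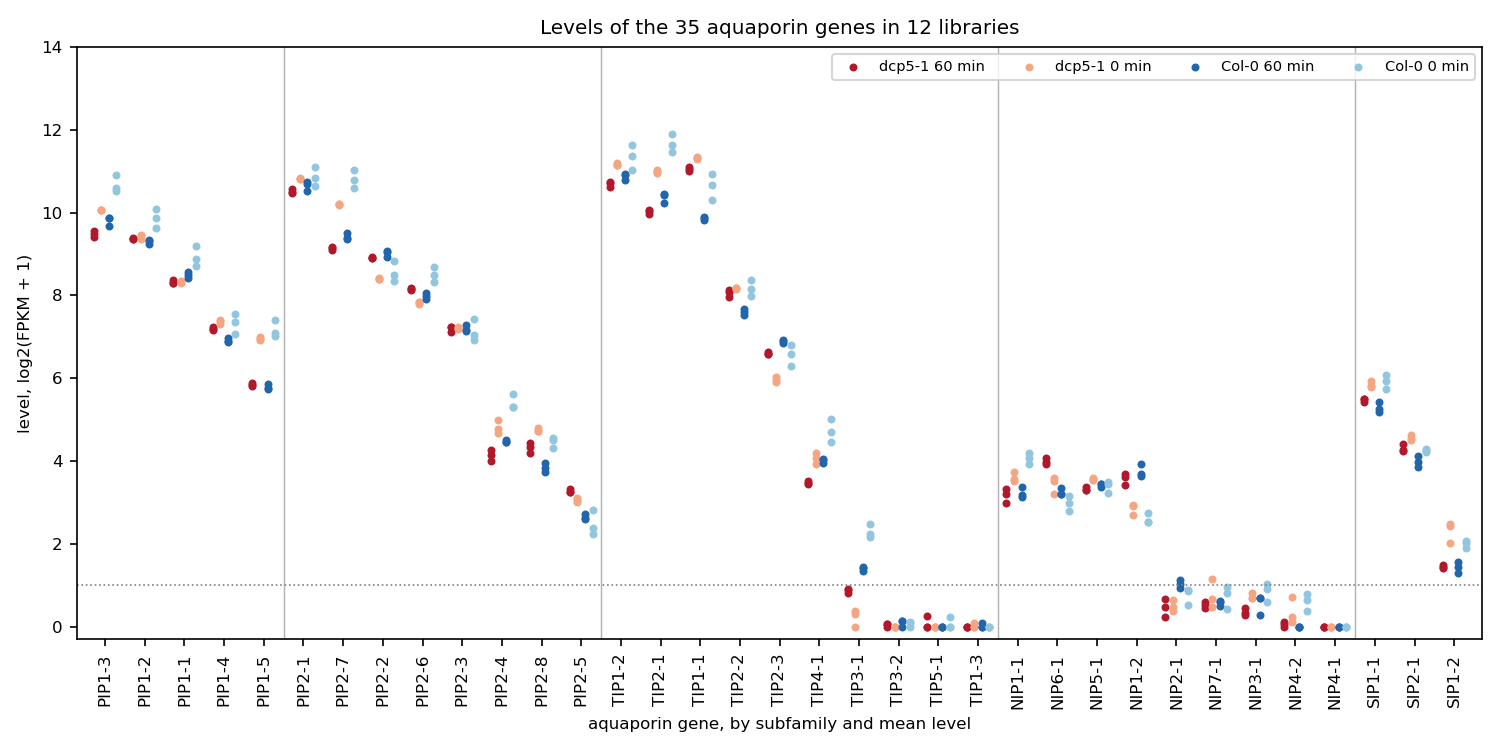
Level of each of the 35 aquaporin genes as log2(FPKM + 1) in each of the 12 libraries, ordered by subfamily and mean level; points are libraries, colours are groups, and the dotted line marks 1 FPKM. TIP and PIP genes span the range, and no NIP or SIP gene reaches 100 FPKM.

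Summed by subfamily, TIP transcripts made up about as much as the PIP1 and PIP2 transcripts together. TIP genes summed to 5195 ± 175 FPKM in dcp5-1 and 4455 ± 237 FPKM in Col-0 at 60 min, and to 7273 ± 127 FPKM in dcp5-1 and 7929 ± 1461 FPKM in Col-0 at 0 min (mean ± SD, n = 3 libraries here and below). PIP2 genes summed to 2974 ± 70.9 FPKM in dcp5-1 and 3260 ± 194 FPKM in Col-0 at 60 min, and to 3748 ± 24.8 FPKM in dcp5-1 and 4635 ± 716 FPKM in Col-0 at 0 min. PIP1 genes summed to 1900 ± 50.2 FPKM in dcp5-1 and 2061 ± 109 FPKM in Col-0 at 60 min, and to 2366 ± 14.9 FPKM in dcp5-1 and 3379 ± 507 FPKM in Col-0 at 0 min. All 3 sums were lower in each 60 min library than in any 0 min library of the same genotype.

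NIP genes behaved otherwise. They summed to 44.0 ± 1.69 FPKM in dcp5-1 and 41.2 ± 0.851 FPKM in Col-0 at 60 min, and to 40.3 ± 1.55 FPKM in dcp5-1 and 40.1 ± 1.38 FPKM in Col-0 at 0 min, so their sum stayed within 38.7 to 45.6 FPKM in every library. In dcp5-1 each 60 min library (42.25 to 45.6 FPKM) lay above each 0 min library (39.1 to 42.07 FPKM), while in Col-0 the times overlapped. SIP genes summed to 64.0 ± 2.43 FPKM in dcp5-1 and 54.9 ± 5.30 FPKM in Col-0 at 60 min, and to 83.4 ± 1.79 FPKM in dcp5-1 and 81.2 ± 6.5 FPKM in Col-0 at 0 min. The share of the family's FPKM held by TIP genes was 51.0 ± 0.47% in dcp5-1 and 45.1 ± 0.383% in Col-0 at 60 min, and 53.8 ± 0.432% in dcp5-1 and 49.3 ± 1.07% in Col-0 at 0 min. At both times the share was higher in every dcp5-1 library than in any Col-0 library. This was not a trait of most TIP genes. Of the 7 tested, 2 were called higher and 4 lower in dcp5-1 at 60 min, against 27.1% and 27.4% of all tested loci. At 0 min 1 was higher and 4 lower, against 18.8% and 28.1%. TIP1-1, higher at both times, averaged 2126 FPKM in dcp5-1 and 929 FPKM in Col-0 at 60 min. Its 0 min means were 2562 FPKM in dcp5-1 and 1613 FPKM in Col-0.

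**Figure D2:**
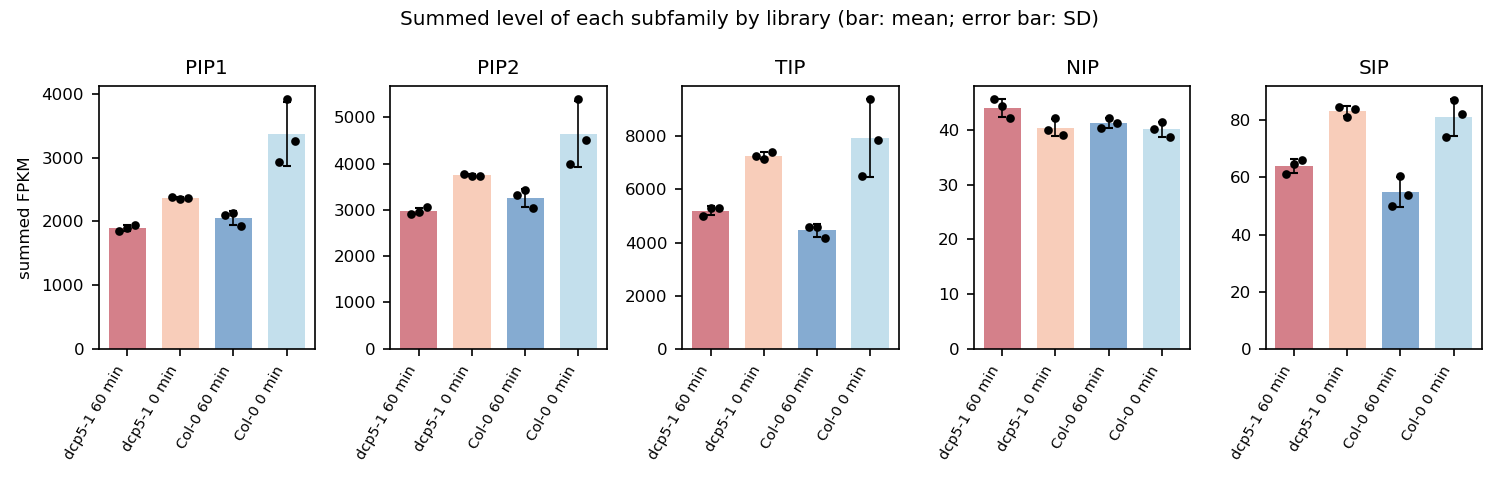
Summed FPKM of each subfamily in each library (points), with the mean (bar) and SD (error bar) of 3 libraries per group, on linear axes that start at 0 and differ between panels. The PIP1, PIP2, TIP and SIP sums of deposited FPKM are lower at 60 min than at 0 min in both genotypes, while the NIP sum stays between 38.7 and 45.6 FPKM.

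After 60 min of salt, aquaporin transcripts were mostly lower in both genotypes in the deposited scaling. In dcp5-1 6 of the 27 tested members were higher and 14 lower at 60 min than at 0 min, against 35.1% and 31.6% of all tested loci, and in Col-0 4 were higher and 19 lower, against 36.3% and 35.7%. The median difference was -0.27 log2 units in dcp5-1 and -0.56 in Col-0, beside 0.02 and 0.01 over all tested loci. These counts depend on scaling: with quantile normalization, which forces all libraries to 1 distribution, they were 10 higher and 11 lower in dcp5-1 and 9 higher and 11 lower in Col-0. Without replicate 2 of Col-0 at 0 min they were 6 higher and 19 lower in Col-0, and without replicate 1 they were 3 and 20. Leaving out TIP3-1, which reached 1 FPKM in Col-0 alone, gave 5 higher and 14 lower in dcp5-1 and 4 and 18 in Col-0.

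Abundant transcripts in general were lower after salt. Of the 1576 loci averaging 100 FPKM or more, 59.8% were lower in dcp5-1 and 73.3% in Col-0, with median differences of -0.33 and -0.67. The 13 aquaporins in that class had median differences of -0.17 in dcp5-1 and -0.52 in Col-0. The 14 tested aquaporins under 100 FPKM had medians of -0.32 in dcp5-1 and -0.59 in Col-0, beside 0.05 and 0.06 over the 18300 loci of that class. Tested aquaporins have short transcripts, with a median of 1348 nt against 1699 nt for tested protein-coding loci, and after removal of a transcript length trend the counts were 5 higher and 14 lower in dcp5-1 and 5 higher and 16 lower in Col-0.

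**Figure D3:**
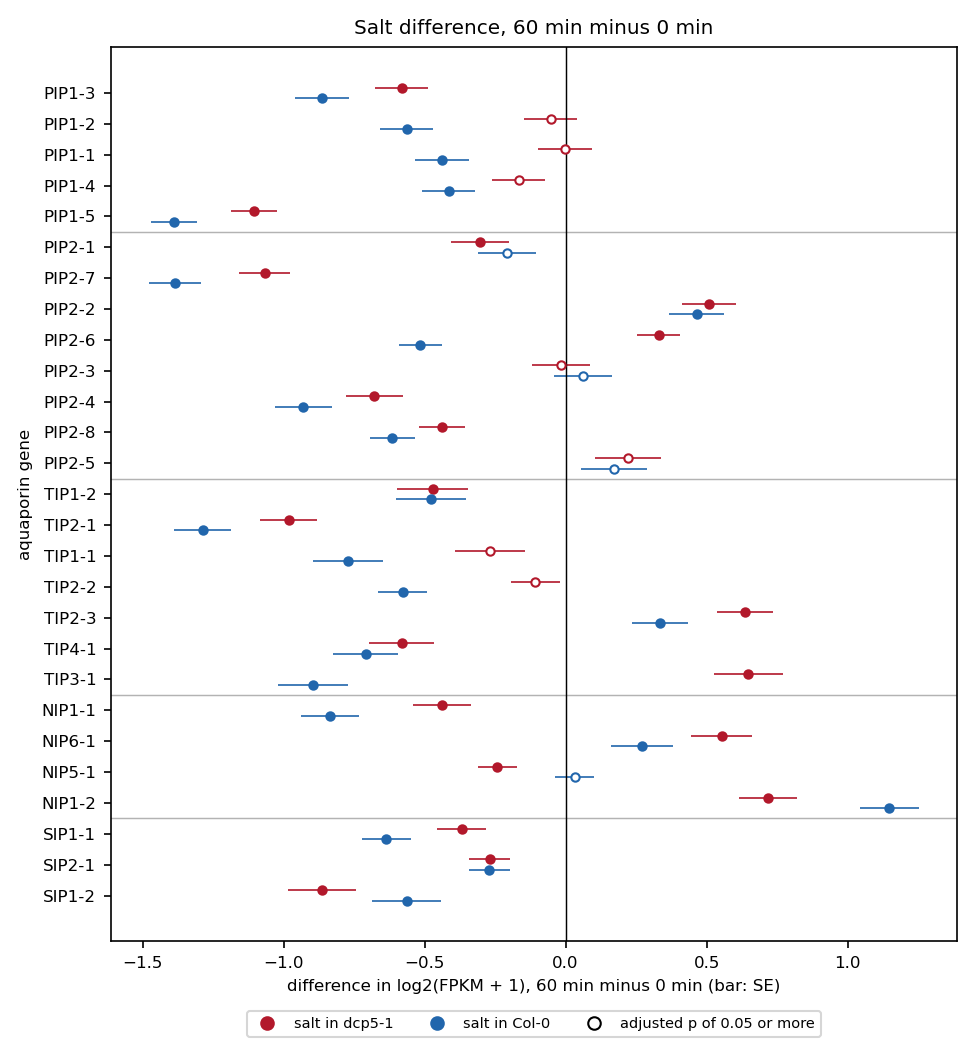
Difference in log2(FPKM + 1) between 60 and 0 min of salt for the 27 tested aquaporins in dcp5-1 and in Col-0 (points, with SE bars; open points have an adjusted p of 0.05 or more). Most points lie left of 0, TIP3-1 and PIP2-6 lie on opposite sides in the 2 genotypes, and with quantile normalization the counts become 10 higher and 11 lower in dcp5-1 and 9 higher and 11 lower in Col-0.

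On the log2(FPKM + 1) scale the steepest falls with salt were in PIP1-5, PIP2-7 and TIP2-1, in both genotypes, although in dcp5-1 the low transcript SIP1-2 fell further as a ratio of means, to 43.0% of its 0 min level against 46.1% for PIP1-5. PIP2-7 (AT4G35100), a plasma membrane water channel, had 543, 564 and 574 FPKM at 60 min and 1177, 1179 and 1167 FPKM at 0 min in dcp5-1. In Col-0 it had 673, 730 and 653 FPKM at 60 min and 1556, 2083 and 1766 FPKM at 0 min. The 60 min libraries were all below the 0 min libraries, and the difference was -1.07 (SE 0.091) in dcp5-1 and -1.39 in Col-0 (limma adjusted p = 8.76e-07 and 7.12e-08). PIP1-5 (AT4G23400), a PIP1 channel, averaged 56.7 ± 1.38 FPKM at 60 min and 123 ± 3.99 FPKM at 0 min in dcp5-1 (-1.10, limma adjusted p = 2.48e-07). In Col-0 it averaged 54.5 ± 2.07 FPKM at 60 min and 145 ± 21 FPKM at 0 min (-1.39, limma adjusted p = 2.62e-08). These calls held in every alternative setting tried.

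TIP2-1 (AT3G16240), the delta-TIP, which passes water and ammonia into the vacuole, fell to a similar degree. It had 995, 1064 and 1054 FPKM at 60 min and 2064, 1998 and 2088 FPKM at 0 min in dcp5-1. The Col-0 libraries had 1392, 1373 and 1212 FPKM at 60 min and 2813, 3787 and 3167 FPKM at 0 min. The groups did not overlap (-0.98 in dcp5-1, limma adjusted p = 4.20e-06; -1.29 in Col-0, limma adjusted p = 3.06e-07). Its antisense neighbour AT3G03265 also differed, by -0.47 in dcp5-1 and -0.99 in Col-0, and the part of overlapping reads in the TIP2-1 value was not tested.

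Among the other PIP genes, all 5 PIP1 members were lower after salt in Col-0 and 2 of 5 in dcp5-1. Of all tested loci 35.7% were lower in Col-0 and 31.6% in dcp5-1, and of loci averaging 100 FPKM or more 73.3% and 59.8%. With quantile normalization PIP1-1 and PIP1-2 were higher in both genotypes, and PIP1-5 alone of the PIP1 genes kept its calls. PIP1-3, the most abundant PIP1, averaged 719 ± 36.3 FPKM at 60 min and 1075 ± 3.42 FPKM at 0 min in dcp5-1 (-0.58, limma adjusted p = 0.000191). The Col-0 mean was 899.5 ± 67.9 FPKM at 60 min and 1646 ± 237 FPKM at 0 min (-0.86, limma adjusted p = 5.72e-06), and neither call was kept with quantile normalization. PIP2-4 and PIP2-8, both under 50 FPKM, were lower in both genotypes under every setting. PIP2-4 differed by -0.68 in dcp5-1 and -0.93 in Col-0, and PIP2-8 by -0.44 in dcp5-1 and -0.61 in Col-0.

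PIP2-1 (AT3G53420), the most abundant PIP and a well studied target of channel phosphorylation, had a small salt difference. It had 1430, 1438 and 1508 FPKM at 60 min and 1814, 1785 and 1805 FPKM at 0 min in dcp5-1. Col-0 seedlings had 1656, 1717 and 1481 FPKM at 60 min and 1610, 2213 and 1825 FPKM at 0 min, and these groups overlap. The difference was -0.30 in dcp5-1 (limma adjusted p = 0.0211) and -0.21 in Col-0 (limma adjusted p = 0.0890), the dcp5-1 call was lost in 5 of 19 alternatives, and with quantile normalization the values turned to 0.14 in dcp5-1 and 0.56 in Col-0.

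PIP2-2, a plasma membrane channel of roots, was called higher after salt in both genotypes in every setting, and in the deposited scaling it was the only such PIP. It had 476, 479 and 484 FPKM at 60 min and 344, 333 and 334 FPKM at 0 min in dcp5-1. In Col-0 it had 538, 526 and 490 FPKM at 60 min and 324, 453 and 359 FPKM at 0 min. The groups did not overlap in either genotype (0.51, SE 0.097, limma adjusted p = 0.000626 in dcp5-1; 0.46, limma adjusted p = 0.00103 in Col-0). Its neighbour PIP2-3, with which it shares coding words, averaged 146 ± 6.10 FPKM at 60 min and 148 ± 2.80 FPKM at 0 min in dcp5-1, and 146 ± 7.19 FPKM at 60 min and 141 ± 26.9 FPKM at 0 min in Col-0. PIP2-3 was not called for salt in either genotype.

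The other members called higher with salt in both genotypes were TIP2-3, NIP1-2 and NIP6-1. TIP2-3 (AT5G47450), an ammonia-permeable TIP, had 98.2, 95.8 and 94.5 FPKM at 60 min and 61.6, 58.8 and 64.4 FPKM at 0 min in dcp5-1 (0.63, limma adjusted p = 0.000142). Its Col-0 levels were 119, 120 and 115 FPKM at 60 min and 77.3, 112 and 94.9 FPKM at 0 min (0.33, limma adjusted p = 0.00985). This made TIP2-3 the only TIP called higher after salt in Col-0 in the deposited scaling, although with only the 6 Col-0 libraries in the fit its adjusted p there was 0.0507.

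The remaining 6 tested TIP genes were lower after salt in Col-0, against 35.7% of all tested loci and 73.3% of loci averaging 100 FPKM or more. Among these genes 3 (TIP1-1, TIP1-2 and TIP2-2) turned to 0.03, 0.29 and 0.06 with quantile normalization. TIP1-2, a vacuolar water channel with the highest mean of the family, averaged 1657 ± 72.5 FPKM at 60 min and 2297 ± 39.2 FPKM at 0 min in dcp5-1 (-0.47, limma adjusted p = 0.00562). Col-0 libraries averaged 1872 ± 101 FPKM at 60 min and 2646 ± 558 FPKM at 0 min (-0.48, limma adjusted p = 0.00460). TIP4-1 averaged 10.1 ± 0.27 FPKM at 60 min and 15.7 ± 1.58 FPKM at 0 min in dcp5-1, and 15.2 ± 0.561 FPKM at 60 min and 25.8 ± 5.17 FPKM at 0 min in Col-0. TIP4-1 was lower in both genotypes under every setting (-0.58 in dcp5-1 and -0.71 in Col-0).

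NIP genes, which carry boric acid, arsenite and other metalloids more than water, split in direction. NIP1-2 (AT4G18910), which carries an aluminium-malate complex, had 11.9, 11.2 and 9.70 FPKM at 60 min and 6.51, 6.73 and 5.49 FPKM at 0 min in dcp5-1. In Col-0 it had 12.0, 14.2 and 11.4 FPKM at 60 min and 4.81, 4.75 and 5.74 FPKM at 0 min. The groups did not overlap, and the differences of 0.72 in dcp5-1 and 1.15 in Col-0 were the largest rises of any member on the log2(FPKM + 1) scale (limma adjusted p = 7.32e-05 and 1.06e-06). As a ratio of means the rise of NIP1-2 in dcp5-1 was 1.75-fold, against 4.67-fold for TIP3-1, which lay under 1 FPKM there. NIP1-1, an arsenite-permeable NIP, went the other way, with 8.00 ± 1.05 FPKM at 60 min and 11.2 ± 1.02 FPKM at 0 min in dcp5-1 (-0.44, limma adjusted p = 0.00254). In Col-0 it averaged 8.41 ± 0.84 FPKM at 60 min and 15.8 ± 1.52 FPKM at 0 min (-0.84, limma adjusted p = 1.53e-05).

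The boric acid channels differed as well. NIP6-1 (AT1G80760), which moves boric acid towards young shoot tissues, had 14.2, 15.9 and 14.7 FPKM at 60 min and 8.24, 10.5 and 11.0 FPKM at 0 min in dcp5-1 (0.55, limma adjusted p = 0.000821). The Col-0 libraries had 9.20, 8.24 and 8.27 FPKM at 60 min and 5.94, 7.99 and 6.98 FPKM at 0 min, and that call (0.27, limma adjusted p = 0.0426) was lost in 10 of 19 alternatives. AT1G80750, which overlaps NIP6-1 on the opposite strand, differed after salt by 0.33 in dcp5-1 and 0.31 in Col-0. NIP5-1, the root boric acid uptake channel, averaged 9.05 ± 0.284 FPKM at 60 min and 10.9 ± 0.268 FPKM at 0 min in dcp5-1 (-0.24, limma adjusted p = 0.00855). The Col-0 mean was 9.69 ± 0.334 FPKM at 60 min and 9.49 ± 1.06 FPKM at 0 min and was not called.

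All 3 SIP genes were lower after salt in both genotypes, against 31.6% of all tested loci in dcp5-1 and 35.7% in Col-0. With a transcript length trend removed, however, SIP2-1 turned to 0.04 in Col-0 and SIP1-2 lost its Col-0 call. SIP1-1 (AT3G04090), a water channel of the endoplasmic reticulum, averaged 43.5 ± 1.44 FPKM at 60 min and 56.5 ± 2.87 FPKM at 0 min in dcp5-1 (-0.37, limma adjusted p = 0.00245). Col-0 libraries averaged 38.2 ± 3.67 FPKM at 60 min and 60.0 ± 6.96 FPKM at 0 min (-0.64, limma adjusted p = 3.35e-05). SIP1-2 averaged 1.73 ± 0.0812 FPKM at 60 min and 4.02 ± 0.839 FPKM at 0 min in dcp5-1, and 1.71 ± 0.245 FPKM at 60 min and 3.00 ± 0.235 FPKM at 0 min in Col-0. SIP2-1 differed by -0.27 in both genotypes, and the call in dcp5-1 too was lost with the length trend removed.

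Between genotypes the family had no common direction. At 60 min 7 members were higher and 7 lower in dcp5-1 than in Col-0, against 27.1% and 27.4% of all tested loci, with a median difference of -0.07. At 0 min 6 were higher and 12 lower, against 18.8% and 28.1%, with a median of -0.15 beside -0.05 over all tested loci. Of loci averaging 100 FPKM or more 51.3% were higher and 17.6% lower in dcp5-1 at 60 min (median 0.23). The 13 aquaporins in that class had 3 higher and 3 lower (median -0.11). At 0 min 16.4% of that class were higher and 41.8% lower (median -0.14), against 1 and 6 of the 13 aquaporins (median -0.18). With quantile normalization the counts were 6 higher and 9 lower at 60 min and 11 and 11 at 0 min. Without replicate 2 of Col-0 at 0 min they were 6 and 11 at 0 min, and without replicate 1 they were 6 and 14. Members higher in dcp5-1 at both times were TIP1-1, PIP2-5, PIP2-8, NIP6-1 and SIP2-1, and these 5 calls held in every setting at both times. No setting addressed reads of the genes that overlap NIP6-1 and SIP2-1. TIP3-1 is among the lower members at both times, but it reached 1 FPKM in Col-0 alone. That selection favoured a lower level in dcp5-1, most of all at 0 min, where its Col-0 level was highest. Without TIP3-1, 6 members were lower at 60 min and 11 at 0 min. Those lower at both times were PIP1-3, PIP2-4, PIP2-7, TIP2-1, TIP2-3, TIP3-1 and TIP4-1. At 0 min these 7 calls were kept in every setting, and at 60 min those of TIP2-1 and TIP4-1 were, the other 5 being lost in at least 1.

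TIP1-1 (AT2G36830), the gamma-TIP and a main vacuolar water channel, had the largest positive genotype difference of any member. At 60 min it had 2063, 2117 and 2199 FPKM in dcp5-1 and 931, 958 and 898 FPKM in Col-0. At 0 min it had 2551, 2525 and 2609 FPKM in dcp5-1 and 1254, 1958 and 1627 FPKM in Col-0. Every dcp5-1 library lay above every Col-0 library at either time, by 1.19 at 60 min (SE 0.125, limma adjusted p = 1.43e-05) and 0.69 at 0 min (limma adjusted p = 0.000882). TIP1-1 was the most abundant aquaporin in dcp5-1 at both times, whereas in Col-0 TIP1-2 and TIP2-1 stood above it.

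TIP2-1 was lower where TIP1-1 was higher. At 60 min it averaged 1038 ± 36.8 FPKM in dcp5-1 and 1326 ± 98.9 FPKM in Col-0 (-0.35, limma adjusted p = 0.0115), and at 0 min 2050 FPKM in dcp5-1 and 3256 ± 493 FPKM in Col-0 (-0.66, limma adjusted p = 0.000280). Both calls were kept in every setting. TIP4-1 followed the same direction, with differences of -0.54 at 60 min and -0.67 at 0 min (limma adjusted p = 0.00199 and 0.000618). TIP1-2 was called at neither time, and with quantile normalization it was higher in dcp5-1 at 0 min (0.35). The TIP sum did not separate the genotypes at 0 min, where 1 Col-0 library lay below and 2 above the dcp5-1 range.

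**Figure D4:**
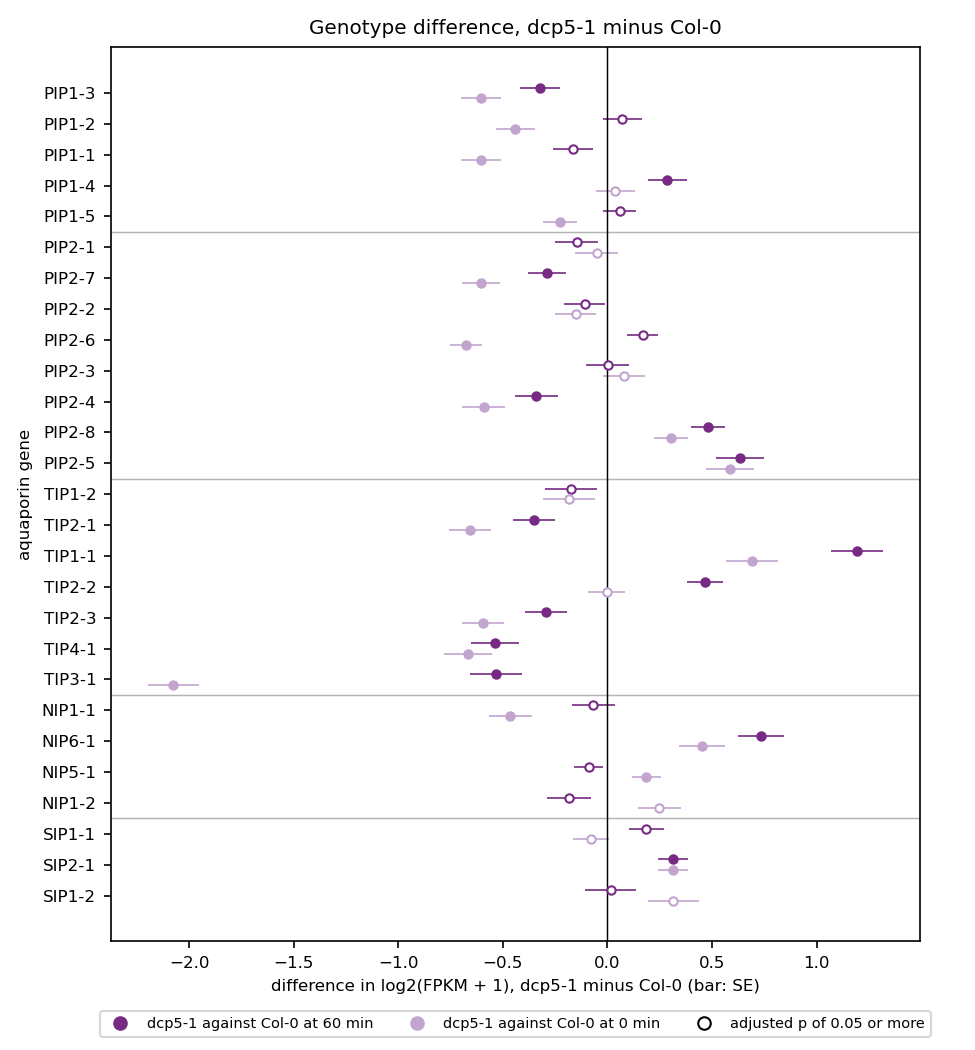
Difference in log2(FPKM + 1) between dcp5-1 and Col-0 at 60 min and at 0 min of salt for the 27 tested aquaporins (points, with SE bars; open points have an adjusted p of 0.05 or more). TIP1-1 lies farthest right at both times and TIP3-1 farthest left at 0 min; with quantile normalization 11 members are higher and 11 lower at 0 min.

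Among PIP genes the largest positive genotype difference was in PIP2-5. PIP2-5, an isoform known to be induced by drought, had 9.05, 8.61 and 8.55 FPKM in dcp5-1 and 5.57, 5.16 and 5.09 FPKM in Col-0 at 60 min. At 0 min it had 7.68, 7.37 and 7.02 FPKM in dcp5-1 and 3.70, 6.01 and 4.23 FPKM in Col-0. The genotypes did not overlap at either time (0.63, limma adjusted p = 0.000747 at 60 min; 0.59, limma adjusted p = 0.00161 at 0 min). PIP2-7, called lower in dcp5-1 at both times, differed by -0.29 at 60 min and -0.61 at 0 min, and PIP1-3 by -0.32 at 60 min and -0.60 at 0 min. PIP1-3 and PIP2-7 each lost the 60 min call in 2 of 19 alternatives. PIP1-4, a PIP1 that also passes hydrogen peroxide, averaged 146 ± 3.49 FPKM in dcp5-1 and 119 ± 4.49 FPKM in Col-0 at 60 min, a call (0.29, limma adjusted p = 0.0224) that was lost in 5 of 19 alternatives.

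NIP6-1 was higher in dcp5-1 by 0.73 at 60 min (limma adjusted p = 0.000184) and 0.45 at 0 min (limma adjusted p = 0.00551), and NIP1-1 was lower at 0 min (-0.46, limma adjusted p = 0.00325). The antisense partner of NIP6-1, AT1G80750, differed by 0.35 at 60 min and 0.33 at 0 min. The part of overlapping reads in the NIP6-1 value was not tested. SIP2-1 was higher in dcp5-1 by 0.31 at both times, while its antisense partner CRD1 differed by 0.34 at 60 min and -0.38 at 0 min. NIP5-1 was called higher in dcp5-1 at 0 min (0.19, limma adjusted p = 0.0448), but this was lost in 14 of 19 alternatives. PIP1-5 was called lower at 0 min (-0.23, limma adjusted p = 0.0384), and this was lost in 10 of 19.

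For 5 members the salt difference itself differed between genotypes. TIP3-1, PIP2-6, PIP1-2, TIP2-2 and PIP1-1 had a positive interaction, 0 members had a negative one, and 16.3% and 8.06% of all tested loci were called in these directions. At an unadjusted limma p below 0.05 the numbers were 10 positive and 2 negative. The median interaction was 0.27 over the 27 tested members and 0.04 over all tested loci. Over loci of at least 100 FPKM it was 0.37, beside 0.31 for the 13 aquaporins in that class. Of the 1576 loci in that class 52.7% had a positive and 2.60% a negative interaction, against 4 and 0 of the 13 aquaporins. Calls depended on Col-0 at 0 min and on scaling: without replicate 1 of that group 12 members had a positive and 1 a negative interaction, and with quantile normalization 2 had a positive and 4 a negative one. Without replicate 2 of that group the counts were 5 positive and 0 negative. The interactions of TIP3-1 and PIP2-6 alone were kept in all 18 alternatives run for this contrast. TIP3-1 reached 1 FPKM in Col-0 alone, so its selection favoured a difference and its persistence adds no support. Without it 4 members had a positive interaction and 0 a negative one.

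PIP2-6 (AT2G39010), a plasma membrane water channel, moved in opposite directions. In dcp5-1 it had 281, 283 and 289 FPKM at 60 min and 229, 223 and 227 FPKM at 0 min, with all 60 min libraries higher (0.33, limma adjusted p = 0.00219). Col-0 seedlings had 254, 266 and 240 FPKM at 60 min and 321, 409 and 362 FPKM at 0 min, with all 60 min libraries lower (-0.52, limma adjusted p = 6.54e-05). With quantile normalization the Col-0 value turned to 0.19, and the rise in dcp5-1 was lost when the transcript length trend was removed. The interaction was 0.84 (SE 0.106, limma adjusted p = 0.000427). Before salt PIP2-6 was lower in dcp5-1 than in Col-0 (-0.68, limma adjusted p = 2.79e-05), and at 60 min the genotypes did not differ past the threshold (0.17, limma adjusted p = 0.0788).

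TIP3-1 (AT1G73190), the alpha-TIP of seed protein storage vacuoles, was a low transcript with 0 to 72 reads per library by the recovered depth. In dcp5-1 it had 0.864, 0.749 and 0.895 FPKM at 60 min and 0.303, 0.234 and 0 FPKM at 0 min (0.65, limma adjusted p = 0.000611). In Col-0 it had 1.69, 1.73 and 1.55 FPKM at 60 min and 4.61, 3.51 and 3.75 FPKM at 0 min (-0.90, limma adjusted p = 3.92e-05). Every dcp5-1 library was below every Col-0 library, and the salt groups did not overlap in either genotype. The genotype difference was -2.08 at 0 min (limma adjusted p = 2.92e-07). However, TIP3-1 passed the filter through Col-0 alone, mostly through the 0 min libraries, which averaged 3.96 FPKM against 1.65 FPKM at 60 min. A gene that passes this way has to differ between genotypes at 0 min. The same selection favoured its fall with salt in Col-0 and its interaction. The interaction was 1.54 (SE 0.174, limma adjusted p = 0.000255), and 3.18 with a pseudocount of 0.1, under which the genotype call at 60 min was lost. Its antisense partner AT1G73200 differed after salt by 0.56 in dcp5-1 and 0.35 in Col-0. Between genotypes the partner differed by -0.03 at 60 min and -0.24 at 0 min. The part of overlapping reads in the TIP3-1 value was not tested.

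The summed level of seed markers followed the order of TIP3-1 over the groups, though not every marker did. Summed over 8 seed markers, a list that holds oleosins and late embryogenesis genes, levels were 9.93 to 11.7 FPKM in dcp5-1 and 14.3 to 17.4 FPKM in Col-0 at 60 min, and 5.70 to 6.36 FPKM in dcp5-1 and 42.9 to 55.5 FPKM in Col-0 at 0 min. OLEO1, OLEO2, EM6 and PER1 were lower after salt in Col-0 and were the 4 of the 8 that passed the filter. OLEO1 averaged 1 FPKM or more in Col-0 alone, with 1.22 FPKM at 60 min and 4.73 FPKM at 0 min. Its selection, like that of TIP3-1, therefore favoured a fall in Col-0. The oleosin gene OLEO2 had an interaction of 2.59 and EM6 one of 1.56. OLEO4 ran the other way in Col-0, with 1.39 FPKM at 60 min and 0.837 FPKM at 0 min. CRA1 averaged 1.94 FPKM in dcp5-1 and 0.605 FPKM in Col-0 at 60 min, and 0.0528 FPKM in dcp5-1 and 0.658 FPKM in Col-0 at 0 min. SESA3 stayed under 0.3 FPKM in every library and CRU3 was listed at 0. The part of seed transcripts in the TIP3-1 difference was not tested.

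The other members with a called interaction had a fall called in Col-0 and no salt call in dcp5-1; with quantile normalization PIP1-1, PIP1-2 and TIP2-2 were positive in both genotypes. PIP1-2 (AT2G45960), which passes water and CO2, had 653, 667 and 661 FPKM at 60 min and 695, 656 and 705 FPKM at 0 min in dcp5-1, so these groups overlap. Its Col-0 levels were 633, 647 and 606 FPKM at 60 min and 787, 1082 and 943 FPKM at 0 min (-0.56, limma adjusted p = 0.000181). The interaction was 0.51 (SE 0.132, limma adjusted p = 0.0173). PIP1-1 (AT3G61430) had 316, 312 and 329 FPKM at 60 min and 317, 325 and 317 FPKM at 0 min in dcp5-1. In Col-0 it had 360, 376 and 340 FPKM at 60 min and 419, 583 and 470 FPKM at 0 min. Its interaction was 0.44 (SE 0.135, limma adjusted p = 0.0371) and was lost in 12 of 18 alternatives.

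TIP2-2 (AT4G17340), a vacuolar channel close to TIP2-3, had 249, 278 and 272 FPKM at 60 min and 283, 290 and 288 FPKM at 0 min in dcp5-1. The Col-0 libraries had 192, 204 and 183 FPKM at 60 min and 253, 333 and 283 FPKM at 0 min. The Col-0 groups were apart (-0.58, limma adjusted p = 8.34e-05), the dcp5-1 difference was -0.11 and not called, and the interaction was 0.47 (SE 0.123, limma adjusted p = 0.0183). TIP1-1 had an interaction of similar size, 0.50, that missed the threshold (SE 0.176, limma adjusted p = 0.0587). The interactions of PIP1-2 and TIP2-2 were each lost with quantile normalization alone.

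**Figure D5:**
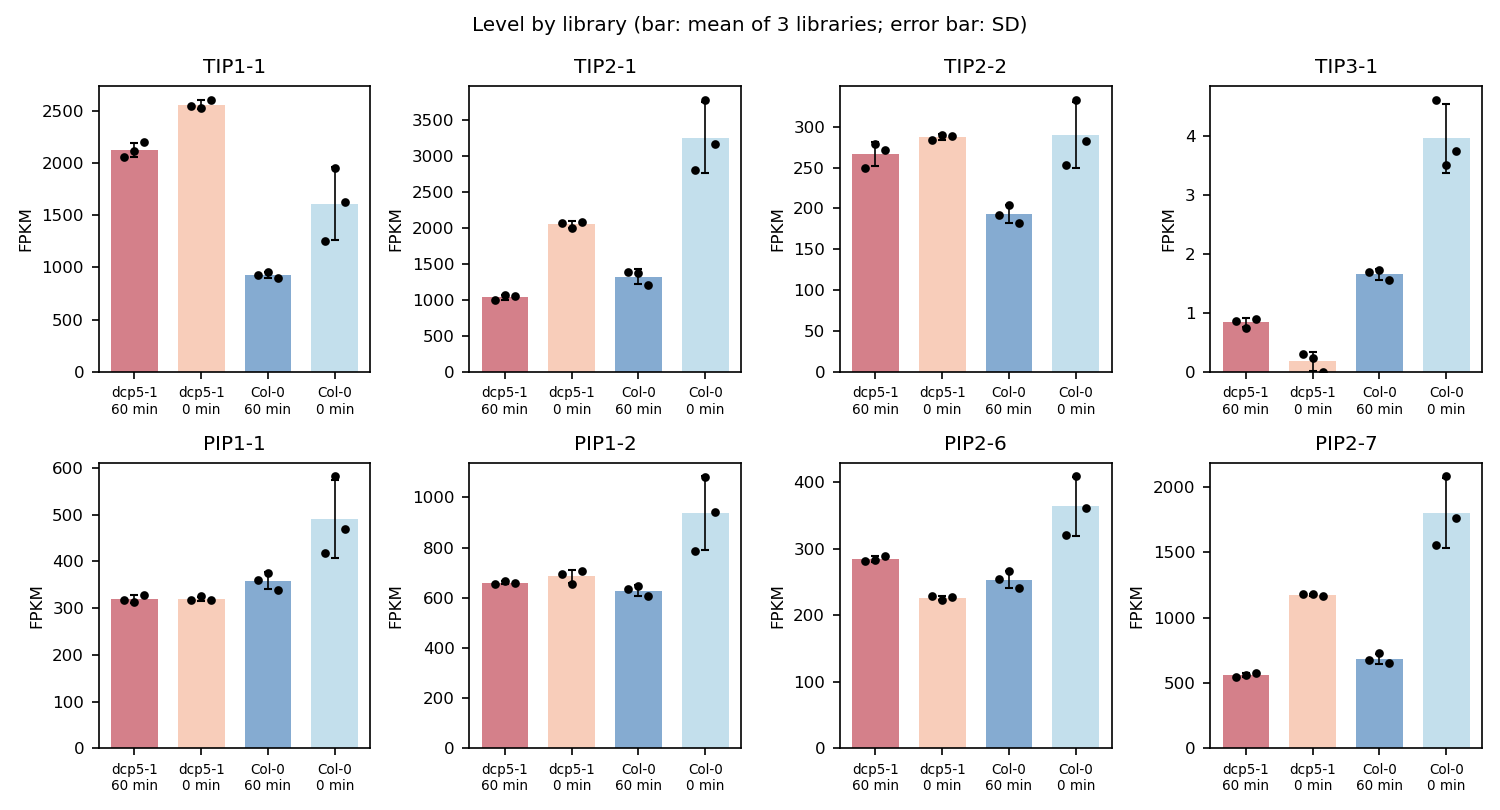
FPKM of 8 aquaporin genes in each library (points), with the mean (bar) and SD (error bar) of 3 libraries per group, on linear axes that start at 0. PIP2-6 and TIP3-1 are higher at 60 min in dcp5-1 and lower at 60 min in Col-0, the PIP2-6 fall in Col-0 turning to 0.19 with quantile normalization; TIP1-1 is higher in every dcp5-1 library than in any Col-0 library of the same time.

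The 8 genes under the filter were untested and are described by their levels. NIP2-1, a lactic acid channel known from oxygen-starved roots, had 0.173 to 0.599 FPKM in dcp5-1 and 0.900 to 1.18 FPKM in Col-0 at 60 min, and 0.291 to 0.574 FPKM in dcp5-1 and 0.446 to 0.848 FPKM in Col-0 at 0 min. NIP7-1, a boric acid channel of anthers, ranged over the 12 libraries from 0.340 to 1.22 FPKM, NIP3-1 from 0.211 to 1.03 FPKM and NIP4-2 from 0 to 0.717 FPKM. TIP1-3 and TIP5-1, known from pollen, were at 0 in 10 of 12 libraries each, and TIP3-2 in 6 of 12. A gene listed at 0 was not detected at this depth.

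Proteins that act on PIPs after translation were also read at the transcript level, from a list of 14 genes for trafficking, phosphorylation and turnover. After salt 8 were higher and 3 lower in dcp5-1, against 35.1% and 31.6% of all tested loci, and 7 were higher and 3 lower in Col-0, against 36.3% and 35.7%, with median differences of 0.24 and 0.17 beside 0.02 and 0.01 over all tested loci. TSPO, a membrane protein that takes PIP2-7 to autophagic degradation, averaged 33.0 FPKM at 60 min and 7.13 FPKM at 0 min in dcp5-1 (2.07, limma adjusted p = 4.92e-08). In Col-0 it averaged 38.3 FPKM at 60 min and 14.9 FPKM at 0 min (1.31, limma adjusted p = 1.90e-06). RMA1, a membrane-anchored ubiquitin ligase that holds PIP2-1 back in the endoplasmic reticulum, averaged 14.6 FPKM at 60 min and 3.41 FPKM at 0 min in dcp5-1 (1.84, limma adjusted p = 1.80e-07). The Col-0 mean was 20.1 FPKM at 60 min and 6.95 FPKM at 0 min (1.42, limma adjusted p = 1.25e-06).

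SYP121, a SNARE that delivers PIPs to the plasma membrane, was lower after salt. It averaged 27.7 FPKM at 60 min and 48.5 FPKM at 0 min in dcp5-1 (-0.78, limma adjusted p = 3.56e-06), and 26.3 FPKM at 60 min and 65.2 FPKM at 0 min in Col-0 (-1.27, limma adjusted p = 4.16e-08). QSK1, a receptor-like kinase of the PIP-activating SIRK1 complex, was also lower (-0.53 in dcp5-1 and -0.90 in Col-0), while SIRK1 was called in neither, except in Col-0 with the length trend removed (-0.35). TSPO, SYP121 and QSK1 also had positive interactions of 0.77, 0.49 and 0.37. Between genotypes at 0 min 1 of the 14 was higher and 9 were lower in dcp5-1, among them RMA1 (-0.86) and TSPO (-0.97), against 18.8% and 28.1% of all tested loci, and at 60 min 3 were higher and 5 lower, against 27.1% and 27.4%.

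The boron exporters, which work beside NIP5-1 and NIP6-1, gave 2 higher and 1 lower of 3 after salt in each genotype, beside 35.1% and 31.6% of all tested loci in dcp5-1 and 36.3% and 35.7% in Col-0. BOR1, which loads boron into the xylem, averaged 14.2 FPKM at 60 min and 9.48 FPKM at 0 min in dcp5-1 (0.53, limma adjusted p = 1.07e-05), and 9.82 FPKM at 60 min and 5.84 FPKM at 0 min in Col-0 (0.66, limma adjusted p = 1.29e-06). It was higher in dcp5-1 than in Col-0 by 0.49 at 60 min and 0.62 at 0 min. BOR4, an exporter known for boron tolerance, was higher after salt by 1.16 in dcp5-1 and 0.88 in Col-0, and BOR2 was lower (-0.34 in dcp5-1 and -0.39 in Col-0).

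Short letters known from stress promoters were also counted. In the 250 bases upstream of each annotated start, on either strand, the letters ACGTG, the core bound by abscisic acid response factors, occurred in 4 of 35 members (11.4%) and in 22.9% of 27443 genes. The letters CCGAC, the core of the dehydration-responsive element, occurred in 4 of 35 (11.4%) and in 12.0% of genes. Neither motif contains the other, although their ends can overlap. Of the 4 members called higher after salt in both genotypes 0 held either, and of the 12 called lower in both 1 held ACGTG and 2 held CCGAC. A match is a description of the letters in this window and not a binding site.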

How the data were processed

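The deposited table, made by the authors, gives values per locus for 12 libraries, taken here as FPKM, and all 12 columns were used. Bowtie (no version) and the build TAIR10 are listed in the submitters' processing notes. No source used here gives the quantification program, the annotation or the strand setting. After a length correction of 260 nt and 1 scale factor per library, 98.9% to 99.5% of low values of 10863 genes lay within 0.1 read of a whole number. The values thus behave as counts divided by length and by 1 factor per library. Because that factor was fitted freely, the check cannot tell FPKM from another unit of this form.

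The fit used log2(FPKM + 1) of the 19876 loci that averaged 1 FPKM or more. With limma 3.58.1 (R 4.3.3), 4 group means were fitted to 12 libraries and variances were moderated along a mean trend, with 8 residual and 3.29 prior degrees of freedom. Tests were two-sided, adjusted by Benjamini-Hochberg over all tested loci, with a threshold of 0.05. The code was tested on simulated data. Tables and figures were made in Python 3.11.15 (pandas 2.3.3, numpy 2.4.6, matplotlib 3.10.9). Locus names, coordinates and sequences come from RefSeq TAIR10.1, which matched 37792 of 38088 loci. The table itself carries no coordinates.

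The members, the lists (PIP trafficking, boron exporters, seed, root and shoot markers) and the tests were chosen with earlier results of these data known. Named genes are those with a called interaction, the 3 highest of each of PIP1, PIP2, TIP, NIP and SIP, the 3 largest called changes per direction and contrast, and list genes. Alternatives were a pseudocount of 0.1, no filter, median scaling, quantile normalization, removal of a transcript length trend, only the libraries compared, a replicate block, and leaving out each library.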

Additional observations from a re-analysis of the deposited data

Results flagged for a closer look

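The salt difference on the log2 scale, dcp5-1 minus Col-0, passed the test of the interaction for 5 members. It was 1.54 for TIP3-1, with salt differences of 0.65 in dcp5-1 and -0.90 in Col-0. TIP3-1 reached the 1 FPKM filter in Col-0 alone, so a difference between genotypes was built into its choice, and without it 4 members passed. It was 0.84 for PIP2-6, with 0.33 in dcp5-1 and -0.52 in Col-0. It was 0.51 for PIP1-2, 0.47 for TIP2-2 and 0.44 for PIP1-1, where the fall called in Col-0 was not called in dcp5-1. Of all tested loci 24.4% passed the same test. Among loci averaging 100 FPKM or more 52.7% had a positive interaction and 2.60% a negative one. With quantile normalization the Col-0 salt difference of PIP2-6 turned to 0.19, and the interactions of PIP1-1, PIP1-2 and TIP2-2 missed the threshold.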

How the results depend on the processing

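Quantile normalization changed most. Under it members higher after salt numbered 10 in dcp5-1 and 9 in Col-0, members lower after salt in Col-0 11, members higher in dcp5-1 at 0 min 11, and members with a higher or lower interaction 2 and 4. Salt differences that turned were, in dcp5-1, PIP1-2 (0.40), PIP1-1 (0.38), TIP2-2 (0.26), PIP2-3 (0.22) and PIP2-1 (0.14), and, in Col-0, PIP2-1 (0.56), PIP1-1 (0.32), PIP1-2 (0.29), TIP1-2 (0.29), RMA2 (0.24), PIP2-6 (0.19), PIP1-4 (0.0748), TIP2-2 (0.0619) and TIP1-1 (0.0330). Genotype differences that turned were TIP1-2 (0.35), PIP2-1 (0.33) and TIP2-2 (0.12) at 0 min and VAMP721 (-0.14) at 60 min, and interactions that turned were TIP1-2 (-0.40) and PIP2-2 (-0.35). With a transcript length trend removed SIP2-1 (0.0351) and SIRK1 (-0.35) turned after salt in Col-0. Over all tested loci 3731 were higher and 5582 lower in dcp5-1 at 0 min in the fit reported, 4796 and 4496 with quantile normalization, and 4729 and 4726 with the length trend removed; for the interaction the numbers were 3248 and 1602, and 2033 and 2077 with quantile normalization. The cause was not tested.

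With only the compared libraries in the fit, 2 members were higher after salt in Col-0. A pseudocount of 0.1, median scaling and length trend removal each gave 1 member with a lower interaction. Leaving out 1 library at a time gave 4 to 12 members with a higher interaction, the 12 without replicate 1 of Col-0 at 0 min, and 0 to 1 with a lower one; no other member count moved by more than 1.5 times. Summing only members above the filter gave NIP sums of 38.2 FPKM in dcp5-1 at 0 min, 39.2 FPKM in Col-0 at 60 min and 37.4 FPKM in Col-0 at 0 min. Same-numbered libraries of different groups correlated at -0.104 to 0.180 in their deviations over 18 pairs. Libraries of different number correlated at -0.164 to 0.147 over 36 pairs. With 3 libraries per group these values cannot show whether same-numbered libraries shared a culture or batch. With the replicate number as a block 6 members had a higher interaction, the added one being PIP1-5, and every other family count stayed as reported (6 higher and 14 lower after salt in dcp5-1, 4 and 19 in Col-0). Depth limits the genes under 1 FPKM and TIP3-1, with 0 to 72 reads per library.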
